A study of Aedes aegypti with 48 samples.

Results

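The peptides of the insect nervous system are made as longer precursor proteins in neurons and neuroendocrine cells. The precursors are cut by prohormone convertases, packed into dense-core vesicles and released, and most of the peptides then act through G protein-coupled receptors on other neurons or on distant organs. Neuroendocrine protein 7b2 accompanies a convertase through the secretory pathway and is needed for that enzyme to become active. Described here are 6 of the 19804 genes counted in Aedes aegypti, chosen by gene name. They are 5 peptide precursors, namely pigment-dispersing factor (PDF, AAEL001754), neuropeptide F (NPF, AAEL002733), corazonin (AAEL005252), pyrokinin (AAEL005444) and adipokinetic hormone (AKH, AAEL011996), and the processing gene 7b2 (AAEL002055).

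The libraries were made from whole bodies of Liverpool strain females, either wild type (WT) or of a line carrying a knockout of the clock gene Cycle (Cyc KO, AeCyc-/-). Females were taken 5 days after emergence from a cycle of 12 h light and 12 h dark at 27 °C, with sucrose offered to adults, at zeitgeber time (ZT) 1, 5, 9 and 13, where ZT counts hours of the light and dark cycle. Dawn and dusk were transitions of 1 h within this cycle. In rearing, adult females were also given sheep blood, and whether the sampled females had fed on it is not stated. Each of the 8 groups held 6 pools of 10 females, so the p-values measure the spread between pools. The KO females belong to 1 line, and what else differs between the 2 lines cannot be told apart from the knockout. The library labelled KO ZT13 replicate 1 held the same counts as WT ZT9 replicate 2 in all 19804 genes, and it was left out, so that 47 libraries entered the comparisons and KO ZT13 has 5 pools. Equal counts do not show which label is right, and they were kept under the WT ZT9 label.

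Between 10670669 and 33232780 reads per library were counted on genes. Levels are given as CPM (counts per 1000000 reads on genes) after scaling by trimmed mean of M-values (TMM), which corrects for depth but not for gene length, so levels are compared between groups and not between genes. A gene is called where the edgeR quasi-likelihood test gave an adjusted p below 0.05 over all genes tested. Cyc (AAEL002049) itself, the targeted gene, was lower in KO by a log2 fold change of -0.92 ± 0.10 at ZT1 (SE, n = 6 against 6), -1.04 ± 0.05 at ZT5 (6 against 6) and -0.37 ± 0.07 at ZT13 (5 against 6), with no overlap between the groups. At ZT9, where WT was itself low at 30.8 ± 1.96 CPM (SD), the Cyc difference was -0.11 ± 0.08 with an edgeR adjusted p of 0.283, so at that time point the transcript does not check the labels.

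All 6 genes passed the filter on low counts in every comparison. Of these, 4 were higher in KO at ZT1 (PDF, corazonin, pyrokinin and 7b2), where 46.9% of 11535 genes were called and 24.4% were higher. Only PDF was called at ZT5, as higher in KO (30.8% of genes called, 15.4% higher), and the same held at ZT9 (33.1% called, 16.4% higher). Only 7b2 was called at ZT13, also as higher (35.6% called, 18.6% higher). None of the 6 was lower in KO at any time point, where between 15.3% (ZT5) and 22.6% (ZT1) of genes were lower. In none of the 6 were the KO and WT libraries free of overlap, which was so for 22.8%, 13.2%, 11.5% and 18.7% of genes. Averaged over the time points, PDF, pyrokinin and 7b2 were higher in KO, among 12344 genes of which 66.1% were called, 34.4% as higher and 31.6% as lower. The median log2 fold change of the 6 genes was 0.34, 0.14, 0.07 and 0.17 at ZT1, ZT5, ZT9 and ZT13, beside medians over all genes tested of 0.02, 0.01, 0.00 and 0.00. In whole-body libraries, more cells of a peptidergic type and more RNA per cell cannot be told apart.

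**Figure D1:**
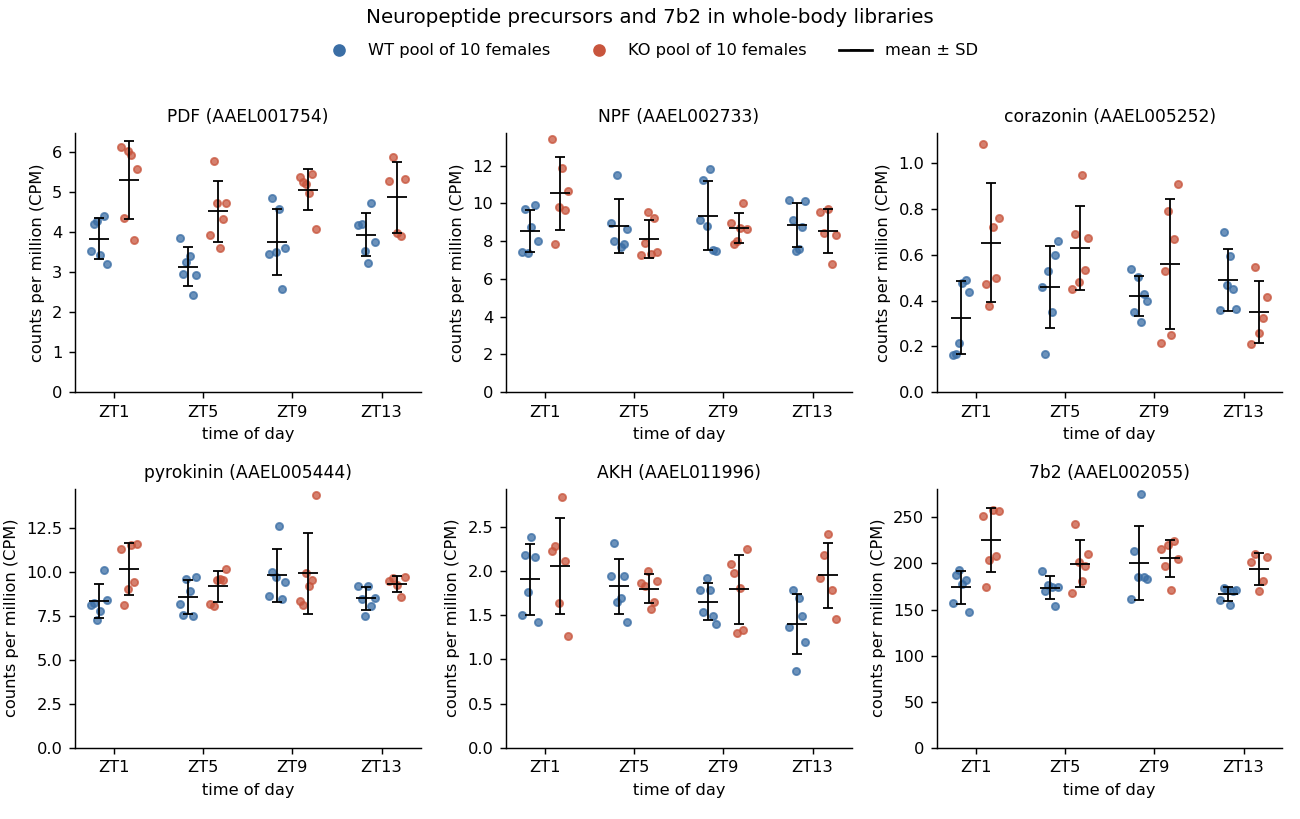
Level (CPM, y axis from 0) of the 5 peptide precursors and 7b2 by time of day (x axis), 1 point per pool, WT in blue and KO in red, with the mean and SD in black. The 4 KO groups of PDF sit on average above all 4 WT groups, and KO and WT points overlap in every panel at every time point.

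PDF is, in Drosophila, the peptide by which clock neurons of the brain keep one another in step. Its level at ZT1 ran from 3.79 to 6.11 CPM in the 6 KO libraries, with a median of 5.74, and from 3.19 to 4.403 CPM in the 6 WT libraries, with a median of 3.86. At ZT5 it ran from 3.60 to 5.78 CPM in KO (median 4.52) and from 2.43 to 3.85 CPM in WT (median 3.09). Most KO libraries stood above every WT library of their time point, 4 of 6 at ZT1 and 5 of 6 at ZT5, but the groups overlapped. At ZT9 the PDF range was 4.07 to 5.43 CPM in KO (median 5.23) and 2.58 to 4.83 CPM in WT (median 3.56). At ZT13 the 5 KO libraries held 5.27, 5.87, 3.96, 3.90 and 5.32 CPM, against a WT range of 3.23 to 4.70 CPM with a median of 3.96. Again 5 of 6 KO libraries at ZT9 and 3 of 5 at ZT13 exceeded every WT library, and the others lay within the WT range.

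The fitted PDF difference was a log2 fold change of 0.46 ± 0.14 (SE) at ZT1, 0.52 ± 0.13 at ZT5 and 0.43 ± 0.14 at ZT9, with edgeR adjusted p-values of 0.0125, 0.00962 and 0.0300. At ZT13 it was 0.30 with a 95% interval from 0.0031 to 0.60 and an edgeR adjusted p of 0.107, which was not called. PDF was thus called in 3 of the 4 comparisons, and the genotype by time interaction, which asks whether the difference changes with the hour, gave an edgeR adjusted p of 0.881. Averaged over time, PDF was 1.35-fold higher in KO (log2 0.43 ± 0.07, edgeR adjusted p 7.58e-07). The ZT1 and ZT5 calls held with any single library left out, with edgeR adjusted p-values of at most 0.0326 and 0.0245. The ZT9 call did not, since it was lost without KO replicate 3, 4 or 5 or WT replicate 1, 3, 5 or 6, with edgeR adjusted p-values from 0.0512 to 0.0633, while the log2 fold change stayed between 0.34 and 0.52.

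By group mean, the order of the PDF levels was KO ZT1 (5.29 ± 0.98 CPM, SD), KO ZT9 (5.05 ± 0.51), KO ZT13 (4.86 ± 0.89), KO ZT5 (4.51 ± 0.76), WT ZT13 (3.93 ± 0.53), WT ZT1 (3.83 ± 0.51), WT ZT9 (3.75 ± 0.82) and WT ZT5 (3.13 ± 0.48). ZT5 was thus the lowest time point of either genotype, but no 2 neighbours in this order were further apart than the larger of their SDs. PDF rested on 51 to 167 reads per library. Counting alone would give a spread of 8.66 to 11.1% of the group mean, beside observed spreads of 10.01 to 21.9%.

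NPF promotes feeding and modulates arousal in Drosophila. At ZT1 its level ran from 7.83 to 13.4 CPM in KO, with a median of 10.2, and from 7.40 to 9.91 CPM in WT, with a median of 8.38. Of the KO libraries, 3 of 6 stood above every WT library, and the other 3 overlapped with them. The NPF log2 fold change at ZT1 was 0.30 with a 95% interval from 0.04 to 0.56 and an edgeR adjusted p of 0.0564, which was not called. It was called when KO replicate 2 or WT replicate 2 or 5 was left out (0.0116, 0.0470 and 0.0400). At the later time points the NPF differences were -0.12 at ZT5 (95% interval -0.35 to 0.11), -0.11 at ZT9 (-0.36 to 0.15) and -0.05 at ZT13 (-0.29 to 0.20), none called, and at ZT5 3 of 6 KO libraries lay below every WT library. NPF differed on average by 0.01 (95% interval -0.12 to 0.13), and the interaction gave an edgeR adjusted p of 0.373. The highest NPF group was KO ZT1 at 10.53 ± 1.93 CPM (SD) and the lowest KO ZT5 at 8.11 ± 1.02 CPM, with the 4 WT groups between 8.53 and 9.34 CPM.

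Corazonin takes part in stress and metabolic responses in Drosophila. It was the sparsest of the 6 genes, with 4 to 29 reads per library and 561 reads in the 47 libraries together. At ZT1 corazonin ran from 0.38 to 1.09 CPM in KO (median 0.61) and from 0.16 to 0.49 CPM in WT (median 0.33). There 4 of 6 KO libraries were above every WT library and 3 of 6 WT libraries were below every KO library. The log2 fold change of corazonin at ZT1 was 1.00 ± 0.36 (SE), the largest fitted difference of the 6 genes, with a 95% interval from 0.23 to 1.77 and an edgeR adjusted p of 0.0330. That call was lost without KO replicate 1, 4 or 6 or WT replicate 1, 2 or 3, where the edgeR adjusted p was 0.0586 to 0.09998 and the log2 fold change at least 0.79.

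After ZT1 no corazonin difference was called. The log2 fold changes were 0.46 at ZT5 (95% interval -0.19 to 1.10) and 0.37 at ZT9 (-0.35 to 1.10). At ZT13 the 5 KO libraries held 0.21, 0.55, 0.26, 0.32 and 0.42 CPM, against 0.36 to 0.70 CPM in WT (median 0.46), so that 3 of 5 KO libraries lay below every WT library. The fitted corazonin value at ZT13 was -0.53, with a 95% interval from -1.22 to 0.17 and an edgeR adjusted p of 0.225. The difference thus ran from above 0 at ZT1 to below 0 at ZT13, but the interaction gave an edgeR adjusted p of 0.318. Group SDs of corazonin were 21.1 to 50.8% of the mean, and counting alone would give 24.1 to 36.3%, so at this depth much of the spread between pools was of the size of counting error.

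Pyrokinin peptides stimulate visceral muscle, and in moths a member of the family starts sex pheromone synthesis. At ZT1 pyrokinin ran from 8.13 to 11.6 CPM in KO (median 10.4) and from 7.25 to 10.1 CPM in WT (median 8.21). KO was above every WT library in 3 of 6 pools, and the 3 other KO pools fell within the WT range. The pyrokinin log2 fold change at ZT1 was 0.29 ± 0.11 (SE, edgeR adjusted p 0.0392), and the call was lost without KO replicate 1, 4 or 6 or WT replicate 1, 2, 3, 4 or 6 (edgeR adjusted p 0.0566 to 0.0885). The differences at ZT5, ZT9 and ZT13 were 0.09, 0.01 and 0.13, with 95% intervals of -0.10 to 0.28, -0.28 to 0.30 and -0.05 to 0.30. Averaged over time, pyrokinin was 1.09-fold higher in KO (log2 0.13 ± 0.05, edgeR adjusted p 0.0328), a call lost without any 1 of 7 libraries, namely KO ZT1 replicate 6, KO ZT9 replicate 6, KO ZT13 replicate 3 or 6, WT ZT1 replicate 3, WT ZT9 replicate 5 or WT ZT13 replicate 3 (edgeR adjusted p 0.05004 to 0.0528). At ZT9 a single pool stood out in each genotype, KO replicate 6 at 14.4 CPM and WT replicate 4 at 12.6 CPM, with the next highest at 9.93 and 10.01 CPM.

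AKH is released from the corpora cardiaca of insects and mobilises lipid and carbohydrate from the fat body. At ZT1 its KO libraries ran from 1.27 to 2.84 CPM (median 2.17) and the WT libraries from 1.43 to 2.39 CPM (median 1.96). At ZT13 the 5 KO libraries held 1.92, 2.18, 2.42, 1.79 and 1.46 CPM, and WT ran from 0.87 to 1.78 CPM with a median of 1.43. All KO libraries but replicate 6 were then above every WT library. AKH rested on 14 to 70 reads per library, with 14 in KO ZT13 replicate 6 and 23 to 40 in the WT ZT13 libraries. In WT ZT13, counting alone would give a spread of 18.7% of the mean, beside an observed 24.1%. The AKH log2 fold change at ZT13 was 0.51 with a 95% interval from 0.08 to 0.94 and an edgeR adjusted p of 0.0599, not called, but called without KO replicate 6 or WT replicate 2 or 4 (0.0487, 0.0435 and 0.0491). At ZT1, ZT5 and ZT9 the AKH values were 0.10 (95% interval -0.32 to 0.53), -0.02 (-0.32 to 0.28) and 0.10 (-0.25 to 0.46). The average over time was 0.18 (95% interval 0.0017 to 0.35, edgeR adjusted p 0.0704) and the interaction gave an edgeR adjusted p of 0.535. In WT the AKH group means were 1.90 ± 0.40, 1.83 ± 0.31, 1.65 ± 0.21 and 1.40 ± 0.34 CPM (SD) at ZT1, ZT5, ZT9 and ZT13, and the test for time in WT gave an edgeR adjusted p of 0.217.

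The processing gene 7b2 had 1984 to 7218 reads per library and the narrowest interval of the 6 genes at each time point. At ZT1 it ran from 173.9 to 257.5 CPM in KO (median 230.1) and from 147 to 192.9 CPM in WT (median 179.95). At ZT5 the ranges were 167.6 to 242.3 CPM in KO (median 199) and 153.9 to 191.6 CPM in WT (median 174.6). In all, 5 of 6 KO libraries at ZT1 and 4 of 6 at ZT5 were above every WT library. At ZT9 7b2 ran from 170.7 to 224.8 CPM in KO (median 210.1) and from 161.8 to 274.9 CPM in WT (median 185), where WT replicate 4 was the highest of all 47 libraries. At ZT13 the 5 KO libraries held 201.7, 210.6, 169.6, 181.2 and 206.8 CPM against a WT range of 154.9 to 173.2 CPM and a median of 170.3. All but KO replicate 4 then exceeded every WT library.

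The 7b2 log2 fold change was 0.37 ± 0.10 (SE) at ZT1 and 0.21 ± 0.06 at ZT13, with edgeR adjusted p-values of 0.00601 and 0.00828, and both calls held with any single library left out. At ZT13 the call was lost in 1 fit of all 47 libraries, where the edgeR adjusted p was 0.0969 at a like size of 0.22. At ZT5 it was 0.20 with a 95% interval from 0.03 to 0.36 and an edgeR adjusted p of 0.0657, which fell to 0.0160 without KO replicate 1 and to 0.0474 without KO replicate 4. At ZT9 it was 0.04 (95% interval -0.20 to 0.27, edgeR adjusted p 0.826), and without the high WT replicate 4 it was 0.15. Averaged over time, 7b2 was 1.15-fold higher in KO (log2 0.21 ± 0.05, edgeR adjusted p 0.000255), and the interaction gave an edgeR adjusted p of 0.460.

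**Figure D2:**
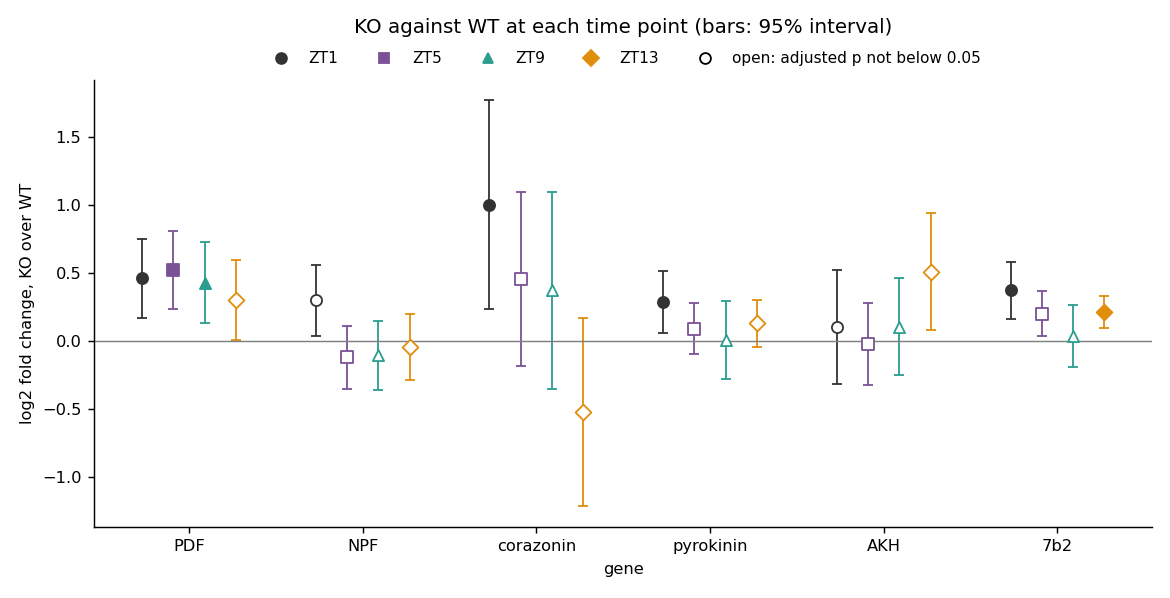
Log2 fold change of KO over WT (y axis) for each gene (x axis) at the 4 time points, with 95% intervals as bars and filled symbols where the edgeR adjusted p was below 0.05. PDF lies between 0.30 and 0.52 at all 4 time points, whereas corazonin runs from 1.00 at ZT1 to -0.53 at ZT13 with the widest intervals.

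None of the 6 genes was called for a genotype by time interaction (1.23% of 12344 genes called), for time in WT (14.2% of 11982) or for time in KO (8.82% of 11989). By unadjusted p under 0.05 there was 1 gene in each of these tests, corazonin for the interaction, 7b2 for time in WT and NPF for time in KO, and the likelihood ratio test of DESeq2 called 0 in all 3. For NPF in KO the edgeR adjusted p was 0.0940, and 0.0230 without KO ZT1 replicate 2. The targeted gene Cyc was called in all 3 tests. Over the 8 groups, the highest mean was 1.69 times the lowest for PDF, 1.30 times for NPF, 2.01 times for corazonin, 1.22 times for pyrokinin, 1.47 times for AKH and 1.35 times for 7b2. Most of the dark phase was not sampled.

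Levels of the 6 genes were compared within libraries. Over the 47 libraries the Pearson correlation of log2 CPM with 7b2 was 0.72 for PDF, 0.60 for pyrokinin, 0.50 for NPF, 0.29 for corazonin and 0.17 for AKH. After the mean of each group was taken away, these correlations were 0.69, 0.43, 0.51, 0.14 and -0.02. NPF with pyrokinin reached 0.54 (0.53 within groups), and AKH stayed between -0.06 and 0.18 with the 4 other peptides. These correlations describe libraries that share their depth and scaling factor with each value. With group means kept, the median correlation of each of the 6 with the 12343 other genes ran from 0.01 (AKH) to 0.06 (7b2). The genes whose levels were most like each of the 6, among 12343 others, were AAEL012139, AAEL025520 and AAEL008485 for PDF (r 0.77, 0.76 and 0.76), AAEL010262, AAEL014450 and AAEL005692 for 7b2 (0.88, 0.87 and 0.86), AAEL020489, AAEL006741 and AAEL025361 for NPF (0.71, 0.71 and 0.69), AAEL007845, AAEL001113 and AAEL007818 for pyrokinin (0.72, 0.72 and 0.71), AAEL025170, AAEL008450 and AAEL004076 for AKH (0.61, 0.56 and 0.55), and AAEL014412, AAEL026231 and AAEL004824 for corazonin (0.56, 0.52 and 0.50).

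**Figure D3:**
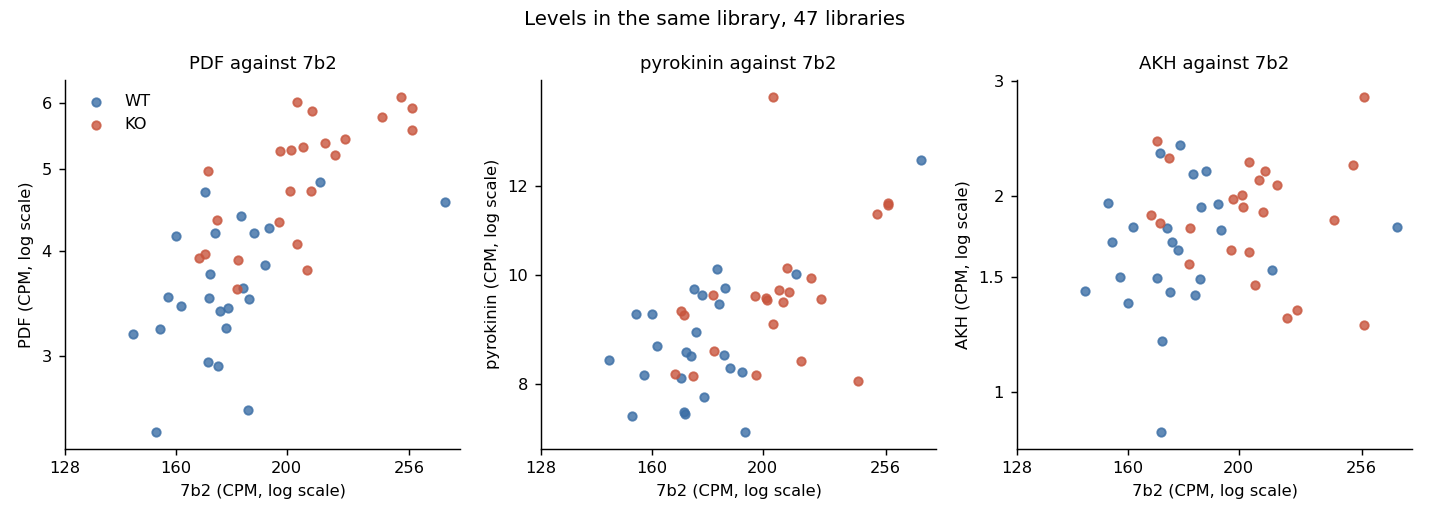
PDF, pyrokinin and AKH (CPM, y axes, log scale) against 7b2 (CPM, x axes, log scale) in the same library, 1 point for each of the 47 libraries, WT in blue and KO in red. PDF tends to be higher where 7b2 is higher (r = 0.72) and AKH shows little relation to it (r = 0.17).

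The ratio of 2 genes in the same library does not depend on depth or scaling. It was computed after the other values had been seen and is given as a description. Per 1000 reads of 7b2, PDF had 23.6 ± 3.76 reads in KO and 21.99 ± 1.59 in WT at ZT1 (SD), and 24.9 ± 2.51 against 23.5 ± 2.94 at ZT13. At ZT5 it had 22.5 ± 1.44 against 17.9 ± 1.63, and at ZT9 24.7 ± 3.09 against 18.8 ± 3.13. The PDF share was thus close between the genotypes at ZT1 and ZT13, and 1.25 and 1.31 times higher in KO at ZT5 and ZT9, where 5 of 6 KO libraries were above every WT library. The ratio of KO to WT in NPF per 1000 reads of 7b2 was 0.948, 0.810, 0.907 and 0.835 at ZT1, ZT5, ZT9 and ZT13, with 4 of 6 KO libraries below every WT library at ZT5 and 3 of 5 at ZT13. Pyrokinin per 1000 reads of 7b2 was 0.936 to 0.985 times the WT value at the 4 time points.

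Other peptide and receptor genes were taken from a list of 17 that the study named from genes called in these same samples, so their direction is not independent evidence. Of its 9 tested peptide genes, 7 were higher in KO at ZT1, 5 at ZT5 and 3 at each of the later time points. The share of all genes higher was 24.4%, 15.4%, 16.4% and 18.6% (ZT1 to ZT13). Of its 7 receptor genes, 5 were higher at ZT1 and at ZT5, 1 at ZT9 and none (0) at ZT13, and no gene of the list was lower at any time point. At ZT13 edgeR also gave 0 of its receptor genes an unadjusted p under 0.05, and the Wald test of DESeq2 called 0. The hormone genes AAEL000937 and AAEL008070 were higher at all 4 time points, with log2 fold changes of 0.77, 0.51, 0.43 and 0.66 for AAEL000937 and 0.82, 0.44, 0.31 and 0.30 for AAEL008070 at ZT1, ZT5, ZT9 and ZT13. Short neuropeptide F (AAEL019691), a peptide distinct from NPF despite its name, was higher at ZT1 by 0.51 ± 0.13 (SE, edgeR adjusted p 0.00546), with values of 0.21, 0.08 and 0.07 at ZT5, ZT9 and ZT13 that were not called. The gonadotropin-releasing hormone receptor AAEL011325, whose family includes the insect receptors of AKH and corazonin, was higher by 0.46 ± 0.07 at ZT1 and 0.26 ± 0.08 at ZT9. Averaged over time, 15 of the 17 genes were higher in KO, beside 34.4% of all genes, with a median log2 fold change of 0.26 beside 0.01 over all genes tested.

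**Figure D4:**
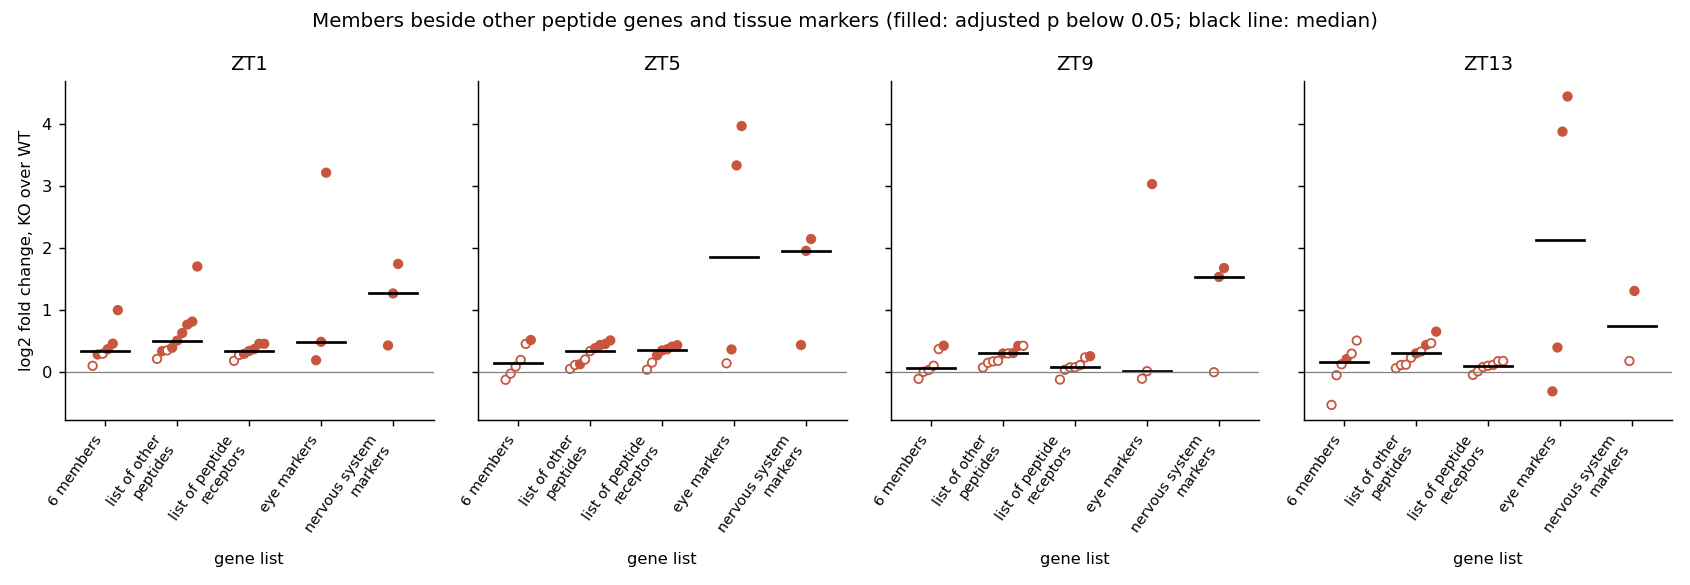
Log2 fold change of KO over WT (y axis) at each time point for the 6 genes, the study's other peptide and receptor genes, and 4 eye and 3 nervous system markers (x axis), 1 point per tested gene, filled where the edgeR adjusted p was below 0.05, with the median as a black line. At ZT1 every tested eye and nervous system marker is filled, and the median of the 6 genes is 0.34.

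Markers of several tissues, among them eye, nervous system and gut, were called in the comparison of KO with WT at each time point. Of 13 tissue markers (eye, nervous system, salivary gland, antenna and gut), all 12 tested were higher in KO at ZT1, 8 of 13 were higher and 1 lower at ZT5, and 5 of 12 were higher at ZT9. At ZT13, 6 of 12 were higher and 1 was lower. Beside these counts, 24.4%, 15.4%, 16.4% and 18.6% of all genes tested were higher at ZT1, ZT5, ZT9 and ZT13. The markers were taken from genes annotated by the study, which names several of them as differing in these same samples. Their direction is therefore not independent evidence. A salivary gland marker, the prosialokinin precursor AAEL000229, is also a peptide gene of the study's list and is counted in both. The gut marker trypsin AAEL007601 was higher at all 4 time points, with log2 fold changes of 1.39, 2.81, 1.33 and 1.87 (ZT1 to ZT13). The marker lower at ZT5 was the antennal odorant binding protein AAEL002591 (-0.66 ± 0.21, SE). At ZT9 1 of 3 tested eye markers was called, and none of the 3 antennal markers (edgeR unadjusted p 0.293 to 0.551). That eye marker, the opsin AAEL005621, ran there from 0.16 to 18.3 CPM in KO (median 1.39) and from 0.40 to 0.57 CPM in WT. The marker lower at ZT13 was myosin iii AAEL009991, an eye marker, at -0.31 ± 0.05 (edgeR adjusted p 0.000406), with all 5 KO libraries below every WT library, whereas the 3 opsins were higher there. The summed level of the 4 eye markers ran from 8566 to 11512 CPM in KO and from 6601 to 8366 CPM in WT at ZT1, without overlap. It ran from 7860 to 11547 CPM in KO against 7518 to 10465 CPM in WT at ZT5, from 8188 to 10912 against 7985 to 11813 at ZT9, and from 8795 to 11998 against 7179 to 8623 at ZT13. The summed level of the 3 nervous system markers ran from 10.6 to 20.3, 16.3 to 18.1, 10.9 to 19.7 and 11.96 to 14.6 CPM in KO at ZT1, ZT5, ZT9 and ZT13, and from 8.95 to 11.3, 5.80 to 9.01, 7.94 to 13.3 and 6.20 to 9.77 CPM in WT. These 3 genes differed. The acetylcholine receptor subunit AAEL004006 was called at all 4 time points, with log2 fold changes of 1.27, 2.15, 1.68 and 1.31. The subunit AAEL010570 was called at ZT1 (0.43) and ZT5 (0.44), but not at ZT9 (0.0003) or ZT13 (0.18). The muscarinic receptor AAEL017181 was called at ZT1, ZT5 and ZT9 (1.75, 1.96 and 1.54) and not tested at ZT13. Of the 13 markers only AAEL005625, an opsin of low level, was at 0 in a library, 1 of WT.

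Nearly all of the eye sum came from the opsin AAEL006259, a light receptor protein of the photoreceptors, whose log2 fold change was 0.49 ± 0.09 (SE) at ZT1 and 0.40 ± 0.09 at ZT13, both called, and 0.14 ± 0.09 and 0.02 ± 0.11 at ZT5 and ZT9, not called. In the same order the values for 7b2 were 0.37, 0.21, 0.20 and 0.04, and the correlation of 7b2 with this opsin over the 47 libraries was 0.76 (0.67 within groups). It was 0.69 (0.62) for pyrokinin, 0.55 (0.54) for PDF, 0.40 (0.34) for corazonin, 0.37 (0.46) for NPF and 0.08 (-0.16) for AKH. Per 1000 reads of AAEL006259, PDF was 0.976 and 0.937 times the WT value at ZT1 and ZT13, and 1.30 and 1.35 times at ZT5 and ZT9. Per 1000 reads of the same opsin, 7b2 was 0.914, 1.04, 1.02 and 0.887 times the WT value at ZT1, ZT5, ZT9 and ZT13. These ratios follow from the differences of PDF, 7b2 and the opsin already given, and are not a separate result. The PDF difference itself was not called as changing with time. The part of these tissue markers in the differences of the 6 genes was not tested.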

How the data were processed

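RNA was extracted from 48 pools of 10 whole females and sequenced from poly-A selected libraries. The authors checked reads with FastQC 0.11.9, trimmed them with Trim Galore 0.6.6, aligned them with HISAT2 2.2.1 to the VectorBase genome AaegL5_2, sorted them with SAMtools 1.11 and counted them with HTSeq 0.11.3. The strand setting of HTSeq is not stated in the sources used here, and reads of overlapping or near-identical genes cannot be told apart. The authors deposited whole-number counts per gene, without normalization. The 5 summary lines name no gene and were left out, which leaves 18.4 to 31.7% of each library's total on genes. At ZT1 this share was 18.4 to 26.5% in KO and 23.6 to 31.7% in WT. Reads that aligned to more than 1 place made up 38.1 to 55.5% of the total in KO ZT1 and 26.6 to 44.9% in WT ZT1. At ZT13 the share on genes was 25.3 to 27.9% in the KO libraries used and 21.0 to 29.8% in WT. The part of this in the differences between genotypes was not tested.

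Counts were fitted with edgeR 4.0.16 in R 4.3.3 (filterByExpr, TMM factors, robust quasi-likelihood F-test, Benjamini-Hochberg over all genes tested). KO was compared with WT within each time point, and the interaction, the average over time and the time courses were fitted over all libraries of the groups they concern. Log2 CPM for correlations used a prior count of 2. Alternatives were DESeq2 1.42.0, its size factors, no filter, the replicate number as a block, other treatments of the library with 2 labels, 1 fit of 47 libraries and leaving out each library. The tests were tried on simulated data. Figures were drawn with matplotlib 3.10.9.

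The 6 genes, Cyc, the study's list of peptide and receptor genes, the tissue markers and the 3 most alike genes per member are named by rule. The genes and lists were chosen with earlier results of these data known. A list drawn from RefSeq descriptions was planned and could not be built, because 0 of the gene identifiers matched the table used here, and for the same reason no sequences are shown.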

Additional observations from a re-analysis of the deposited data

Results flagged for a closer look

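In 4 of the 48 groups formed by 6 genes and 8 conditions, 1 library stood apart from the rest by Dixon's gap test, which chance does in about 1 group in 20. KO ZT9 replicate 6 had the lowest PDF level of its group, 4.07 CPM against 4.98 CPM for the next, a gap of 0.667 of the range, and the highest pyrokinin level of its group, 14.4 CPM against 9.93 CPM, a gap of 0.714. Its 7b2 level, 204.3 CPM, lay within the range of the other KO libraries at ZT9. WT ZT9 replicate 4 had the highest pyrokinin level of its group, 12.6 CPM against 10.01 CPM (0.634), and also the highest 7b2 level, 274.9 CPM. WT ZT5 replicate 3 had the highest NPF level of its group, 11.5 CPM against 8.97 CPM (0.667). The critical gap for groups of 6 is 0.625.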

How the results depend on the processing

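Of the 6 genes, the number called at ZT1 was 4, and 2 with no filter on low counts, where more genes were tested (corazonin and pyrokinin were lost at edgeR adjusted p-values of 0.0555 and 0.0567). At ZT5 it was 1, and 2 with the DESeq2 Wald test, which added 7b2 (adjusted p 0.0458). NPF at ZT1 and AKH at ZT13 were called in 1 fit of 47 libraries (edgeR adjusted p 0.0365 and 0.0323). With the WT ZT9 copy of the library of 2 labels also left out, the number called stayed at 1 at ZT9 and at 3 for the average over time points. With 1 library left out, the number called ranged from 2 to 5 at ZT1, 1 to 2 at ZT5, 0 to 1 at ZT9, 1 to 2 at ZT13, 2 to 4 for the average over time points and 0 to 1 for time in KO, and stayed at 0 for the interaction and time in WT. Values near 0 changed sign. Pyrokinin at ZT9 (0.01) was -0.0029 with DESeq2 size factors and with the DESeq2 Wald test, and NPF at ZT13 (-0.05) was 0.029 with the library of 2 labels kept in as KO. With 1 library left out, 7b2 at ZT9 ran from -0.019 to 0.15, AKH at ZT1 from -0.0024 to 0.20 and at ZT5 from -0.082 to 0.055, NPF at ZT13 from -0.097 to 0.029 and averaged over time from -0.013 to 0.031, and pyrokinin at ZT9 from -0.12 to 0.092. The cause of these changes was not tested.

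Same-numbered KO and WT libraries of a time point did not deviate together (correlations from -0.11 to 0.12, over 0.1 in 1 of 23 pairs). Libraries of the same number were not compared across time points, so this cannot show whether the number stands for a batch. With the replicate number as a block, 0 genes were called at ZT9, where PDF was 0.44 (edgeR adjusted p 0.0505), and 3 at ZT1, where pyrokinin was 0.28 (0.0600). Pyrokinin at ZT9 was -0.0031. The block changed no other call of the 6 genes. Over all genes, 2106 were called at ZT13 with the library of 2 labels kept in as KO (4099 without it). The DESeq2 likelihood ratio test called 351 for the interaction (152 with edgeR) and 1964 for time in KO (1057). Leaving out KO ZT1 replicate 1 gave 100 for the interaction and 572 for time in KO, which ran from 572 to 1903 and moved by over 1.5 times also without KO ZT1 replicate 2 or 4 or KO ZT13 replicate 4 or 5. Corazonin, with 4 to 29 reads per library, did not pass the filter at ZT13 in some of the fits with a library left out.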
